A study of Mus musculus with 12 samples.

Results

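Cre-positive and Cre-negative mouse embryonic fibroblasts (MEFs) that had both received 4-hydroxytamoxifen (4-OHT) were compared by RNA-seq, with 2 libraries per line, over genes that lie off chromosomes X and Y. Of 17609 genes that passed the filter on low counts, 16593 were placed off X and Y and were compared, 16577 on autosomes and 16 on the mitochondrial genome; 662 lay on X or Y and 354 had no single placement. Before the filter the table held 41652 genes off X and Y, so the 16593 are those with enough reads to test. The contrast holds the drug constant, so it carries the deletion of the floxed genes together with every other difference between the lines, and these cannot be told apart within it.

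The labels mark the lines as Cre +ve and Cre -ve. Both are floxed at Ssb1 and Ssb2, written Fl/Fl throughout except for Ssb1 in the Cre-positive line, which the label gives as Fl/F. Both lines were C57BL/6 MEFs from E13.5 embryos, made immortal with SV40 large T antigen carried by a retroviral vector with puromycin or blasticidin resistance. All groups therefore share the floxed alleles and the viral antigen, which binds p53 and the retinoblastoma protein. RosaCreERT2 is a Cre recombinase fused to a modified oestrogen receptor and expressed from the Rosa26 locus, which enters the nucleus when 4-OHT binds. Cells were left untreated or received ethanol, the solvent, or 4-OHT for 5 days, giving 6 groups of 2 libraries. How many embryos or clones stand behind a line is not stated, nor whether paired libraries of a group are separate cultures. The p-values therefore rest on library-to-library spread, possibly only technical.

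Ssb1 is the alias of Nabp2 and Ssb2 that of Nabp1. Each encodes a small protein that binds single-stranded DNA and joins Ints3 and Inip in the SOSS complex, which acts in the repair of DNA breaks by homologous recombination. Ints3 is also a subunit of Integrator, the assembly that rides with RNA polymerase II and cuts the 3′ end of nascent small nuclear RNAs (snRNAs), the RNA cores of the spliceosome. When that cut is not made, polymerase reads on past the snRNA gene.

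The sequences of 2 of the 3 snRNA copies that were higher with 4-OHT are shown here because these 2 had the largest log2 differences among the SOSS, Integrator and snRNA genes. They are GENCODE M21 transcripts on GRCm38, with a U-rich stretch matching the letters ATTTNTG, the pattern of an Sm protein binding site, in capitals. Only the transcript strand was searched, and the pattern occurred in 8.07% of the 4796 GENCODE transcripts of 100 to 200 bases. Rnu1a1, a U1 copy, lies at chr11:87422867-87423030 on the plus strand within the span of Tex14, and Rnu2-10, a U2 copy, at chr11:101658238-101658428 on the plus strand.
Rnu1a1: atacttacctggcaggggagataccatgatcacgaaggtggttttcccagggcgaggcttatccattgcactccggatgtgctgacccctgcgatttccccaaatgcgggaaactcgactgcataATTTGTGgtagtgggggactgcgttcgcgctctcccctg
Rnu2-10: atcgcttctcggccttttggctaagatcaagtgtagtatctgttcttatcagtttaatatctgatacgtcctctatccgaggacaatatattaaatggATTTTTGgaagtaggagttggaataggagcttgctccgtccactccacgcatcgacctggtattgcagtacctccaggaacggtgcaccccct

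Total counts ran from 20201855 to 36367012 over the 12 libraries, and the compared libraries held 36367012 and 30725424 (Cre-positive, libraries 11 and 12) against 22440851 and 30078313 (Cre-negative, libraries 5 and 6). Levels below are CPM, read counts relative to the library's total after TMM scaling. Of 14 fibroblast markers 12 passed the filter, but Thy1 was at 0, 0, 0 and 0.0333 CPM in libraries 5, 6, 11 and 12, Lum was at or below 0.34 CPM and Dcn at or below 0.883 CPM. Tested epithelial, haematopoietic, endothelial and skeletal muscle markers each summed to at most 4.3 CPM per library, and neural markers to 181 and 177 CPM in the Cre-negative and 142 and 143 CPM in the Cre-positive libraries. The lines also differed in sex-linked RNA: Xist stood at 559 to 689 CPM in the Cre-negative and 0.2 to 0.255 CPM in the Cre-positive libraries with 4-OHT, and Uty at 0 against 2.46 to 2.6 CPM. That difference was present in all 6 libraries of each line, and its part in the autosomal results was not tested. Mitochondrial RNA made up 1.83% and 1.92% of the Cre-positive counts against 2.22% and 2.00% of the Cre-negative counts.

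Both targeted genes were lower in the Cre-positive line with 4-OHT, and most of that difference appeared only with the drug by the test of the difference itself. Nabp1 (chr1:51465862-51478425, minus strand) stood at 3.40 and 3.96 CPM in the Cre-positive libraries and at 26.3 and 25.7 CPM in the Cre-negative libraries, without overlap. The log2 difference was -2.83 (SE 0.10, adjusted p = 2.2e-16). With ethanol Nabp1 was at 14.5 and 15.9 CPM against 26.5 and 24.5 CPM, and the untreated lines differed alike, by -0.74 on the log2 scale in each case. The Cre-positive line thus carried less Nabp1 RNA before any 4-OHT, and the further difference with 4-OHT was -2.08 relative to ethanol (adjusted p = 6e-10).

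Nabp2 (chr10:128401395-128411492, minus strand) read 4.84 and 5.09 CPM against 31.2 and 28.2 CPM with 4-OHT, a log2 difference of -2.58 (SE 0.09, adjusted p = 3.6e-16). With ethanol it was at 19.8 and 22.6 CPM against 26.2 and 26.4 CPM, a log2 difference of -0.31, and the line contrast moved by a further -2.27 with 4-OHT. Within the Cre-negative line 4-OHT changed neither gene past the threshold against ethanol (log2 0.03 for Nabp1 and 0.17 for Nabp2). Reads remained over both genes in the Cre-positive 4-OHT libraries; counts per gene do not show which exons they came from.

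The partners of the targeted proteins moved little. Ints3, the scaffold of SOSS, was at 55.5 and 62.5 CPM against 77.0 and 73.4 CPM (log2 -0.35, adjusted p = 4.5e-06). Its line contrast was -0.18 with ethanol, which passed, and -0.02 untreated, which did not. The 4-OHT contrast differed from the untreated one by -0.33, which passed, and from the ethanol one by -0.17, which did not. Inip, a small partner, was at 38.5 and 38.8 CPM against 40.1 and 40.9 CPM and did not pass (log2 -0.07, SE 0.05, adjusted p = 0.30). Without 4-OHT Inip was lower in the Cre-positive line, by -0.31 with ethanol and -0.24 untreated, and both passed. The 4-OHT contrast of Inip differed from the ethanol one by 0.24, which passed, and from the untreated one by 0.18, which did not. The Rosa26 transcript Gt(ROSA)26Sor, from the locus that carries the Cre transgene, read 11.6 and 10.3 CPM against 11.5 and 11.1 CPM; the groups overlapped and the difference did not pass (log2 -0.04, SE 0.09, adjusted p = 0.75).

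**Figure D1:**
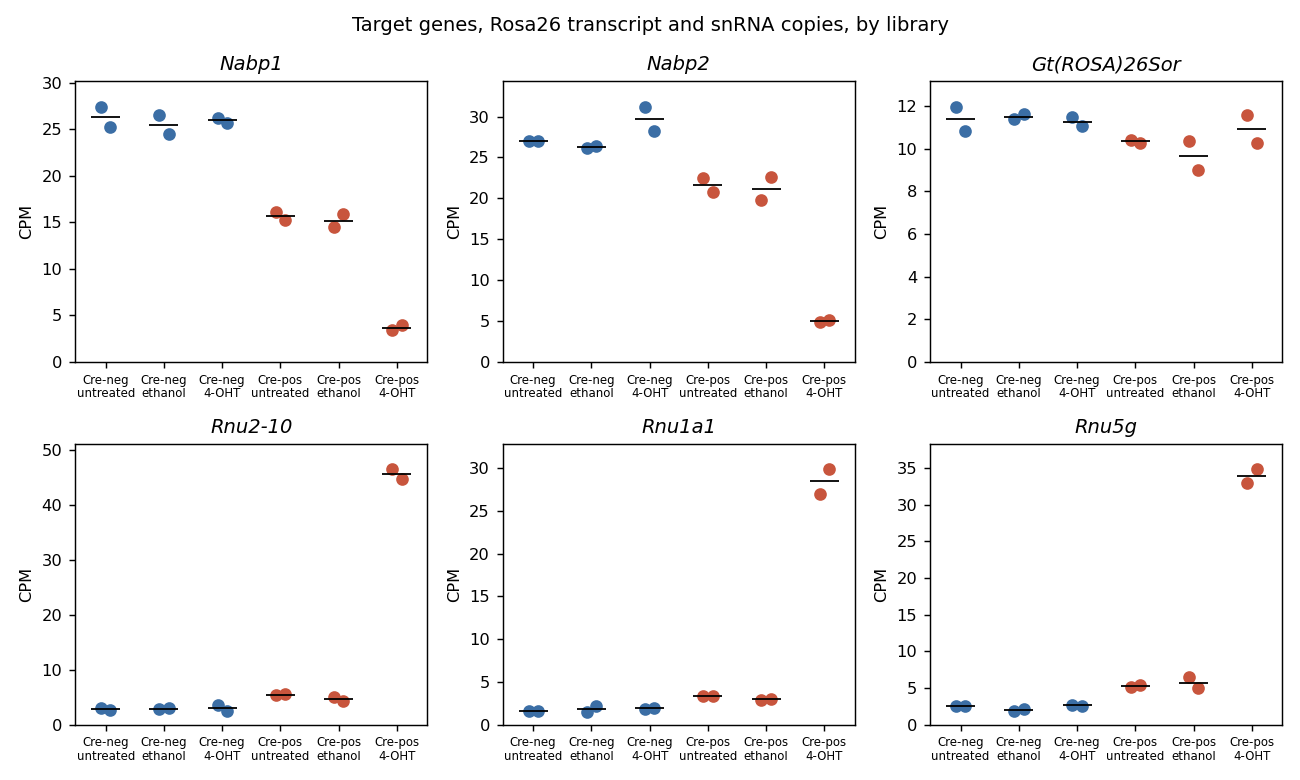
CPM of Nabp1, Nabp2, Gt(ROSA)26Sor and the snRNA copies Rnu2-10, Rnu1a1 and Rnu5g in each of the 12 libraries; points are libraries, lines the mean of 2, blue the Cre-negative and red the Cre-positive line. Both target genes were lowest, and the 3 snRNA copies highest, in the Cre-positive 4-OHT libraries, while Gt(ROSA)26Sor stood between 8.98 and 12.0 CPM throughout.

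Of 15 snRNA gene copies in the table, 10 were placed off X and Y and 5 passed the filter; 3 of these were higher with 4-OHT, 1 was lower and 1 did not pass; of all 16593 compared genes 61.2% passed, 30.8% higher and 30.3% lower. Rnu2-10 stood at 46.5 and 44.7 CPM in the Cre-positive libraries and at 3.53 and 2.54 CPM in the Cre-negative libraries, a log2 difference of 3.94 (SE 0.11, adjusted p = 4.3e-18). With ethanol the same copy was at 5.08 and 4.36 CPM against 2.75 and 3.08 CPM, so that a difference of 0.69 was already present and 3.25 appeared only with 4-OHT by the interaction test. Rnu1a1 was at 27.0 and 29.9 CPM against 1.81 and 1.98 CPM (log2 3.89 with 4-OHT, 0.70 with ethanol). Rnu5g was at 33.0 and 34.8 CPM against 2.74 and 2.51 CPM (log2 3.70 with 4-OHT, 1.48 with ethanol). All 3 copies stood apart from the Cre-negative libraries without overlap, as 79.8% of all compared genes did.

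Rnu12, the U12 RNA of the minor spliceosome, went the other way, at 27.5 and 26.1 CPM against 39.6 and 37.1 CPM (log2 -0.51, adjusted p = 3.7e-06); its line contrast was 0.15 with ethanol, which did not pass, and -0.48 untreated. snRNA genes have many near-identical copies, so reads may have been split among them by the authors' counting, and the values describe the annotated copies only. Counts per annotated copy do not show whether the reads ended at the mature 3′ end.

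Tex14, whose gene contains Rnu1a1, was itself at 9.71 and 10.6 CPM against 2.03 and 1.68 CPM with 4-OHT (log2 2.46), while its line contrast did not pass with ethanol (0.53) or untreated (0.23). Tex14 encodes a germ-cell protein of intercellular bridges. The strand setting of the counting is unknown here, and reads from overlapping genes cannot be told apart.

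Of 13 Integrator subunits tested, 2 were higher and 8 lower with 4-OHT, 76.9% called beside 61.2% of all compared genes. Their median log2 difference was -0.18, and over all compared genes the median was -0.00. With ethanol 1 was higher and 6 lower (median -0.09), where 55.0% of all compared genes passed, and untreated 1 and 3 (median -0.05), where 49.3% passed. Cpsf3l, also called Ints11, the catalytic endonuclease, was at 27.3 and 26.3 CPM against 50.4 and 50.9 CPM, a log2 difference of -0.92 with 4-OHT, -0.58 with ethanol and -0.44 untreated. Ints4, which holds the cleavage module together, was at 34.4 and 34.9 CPM against 46.4 and 46.4 CPM (log2 -0.42). Ints8 was at 57.2 and 58.2 CPM against 76.7 and 70.9 CPM (log2 -0.35). For the list, 2 of 13 differences between the 4-OHT and ethanol line contrasts passed upward and 3 downward, beside 14.8% and 13.8% of all compared genes.

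Across all 16593 genes the lines differed widely with 4-OHT, and largely in the same genes without it. With 4-OHT 5115 genes were higher and 5033 lower in the Cre-positive line at an adjusted p of at most 0.05. At least 2-fold differences were fewer, 1718 higher (10.4%) and 950 lower (5.73%). The ethanol contrast, which uses other libraries of the same lines, gave 4419 higher (26.6%) and 4712 lower (28.4%), and the untreated contrast 4097 (24.7%) and 4090 (24.6%).

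Of the 5115 genes higher with 4-OHT, 2655 (51.9%) also passed in the same direction both with ethanol and untreated, 1026 in 1 of them and 1125 in neither. Of the 5033 lower genes the counts were 2702 (53.7%), 1197 and 773. A contrast that misses the threshold does not show that lines were alike; of the genes that passed in neither, the difference between the 4-OHT and ethanol contrasts itself passed in the same direction for 456 higher and 355 lower genes. Over all genes that difference passed for 4749 genes (28.6%), 2453 upward and 2296 downward, and against untreated for 4006 (24.1%), 12.2% upward and 12.0% downward. Most of the largest differences recurred: of 434 genes at least 8-fold higher, 372 were higher in all 3 conditions, and of 208 at least 8-fold lower, 202 were lower in all 3.

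**Figure D2:**
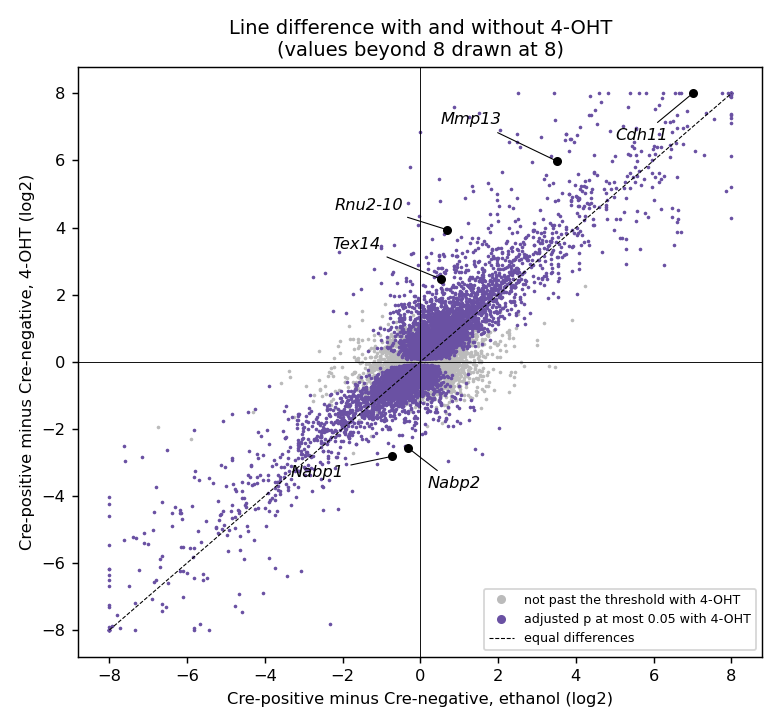
Log2 difference between the lines with 4-OHT (vertical) against that with ethanol (horizontal) for the 16593 genes; the 2 axes use different libraries, the dashed line marks equal differences, and values beyond 8 are drawn at 8. Most points follow the dashed line, while Nabp1 and Nabp2 lie below it and Rnu2-10, Tex14 and Mmp13 above it.

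The genes with the largest differences were nearly silent in one line. Ctsc, the lysosomal protease cathepsin C, reached 40.5 and 41.4 CPM in the Cre-positive line with 4-OHT and had no counts in the Cre-negative line, at least 721-fold higher against a floor of 3 counts over the group. Rgs16, a regulator of G-protein signalling, was at 17.3 and 17.7 CPM against no counts (at least 308-fold), and Megf10, a phagocytosis receptor, at 6.45 and 5.16 CPM against none (at least 103-fold). Cdh11, the cadherin of mesenchymal cells, was at 153 and 149 CPM against 0.486 and 0.363 CPM (log2 8.49, SE 0.10, adjusted p = 5.6e-24). Cdh11 was also higher untreated (log2 7.33) and with ethanol, and the added 1.49 with 4-OHT over ethanol passed the test of the difference.

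Further genes had almost no reads in the Cre-negative 4-OHT libraries. Thbs2, a thrombospondin of the matrix, was at 23.3 and 18.6 CPM against 0.0442 and 0.0661 CPM, a ratio of 373 with a counting interval of 127 to 1812. S1pr3, a receptor for sphingosine-1-phosphate, was at 42.4 and 42.6 CPM against 0.177 and 0.0991 CPM (log2 8.28). Tspan11, Scrn1, Nynrin, Chodl, Ptprb, Stmn2, Ecscr, Dnah5 and Exo5 completed the 15 highest, with at most 0.132 CPM in either Cre-negative 4-OHT library; all 15 were also higher with ethanol and untreated.

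In the other direction Pcsk2, a protease that matures prohormones, was at 25.6 and 22.6 CPM in the Cre-negative 4-OHT libraries and had no counts in the Cre-positive ones, at least 521-fold lower. Gabrb2, a subunit of the GABA-A receptor, was at 9.93 and 11 CPM against 0.0849 and 0.0666 CPM (log2 -7.02). Gdf6, a BMP-family ligand of joints, was at 53.2 and 57.4 CPM against 0.0283 and 0.0333 CPM, a ratio of 1816 with a counting interval of 502 to 15002.

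Foxp2, a forkhead transcription factor, was at 25.2 and 22.9 CPM against 0.0566 and 0 CPM, and Erbb3, a receptor for neuregulins, at 47.7 and 52.2 CPM against 0.311 and 0.200 CPM (log2 -7.56). Thbd, thrombomodulin, was at 25.4 and 24.1 CPM against 0.0566 and 0.133 CPM (log2 -8.00). These 6, with Nova1, Mpzl3, Mab21l2, Acan, Prkg1, Gatm, Pcp4l1 and Lhpp, made up 14 of the 15 lowest, and all 14 were lower with ethanol and untreated too.

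**Figure D3:**
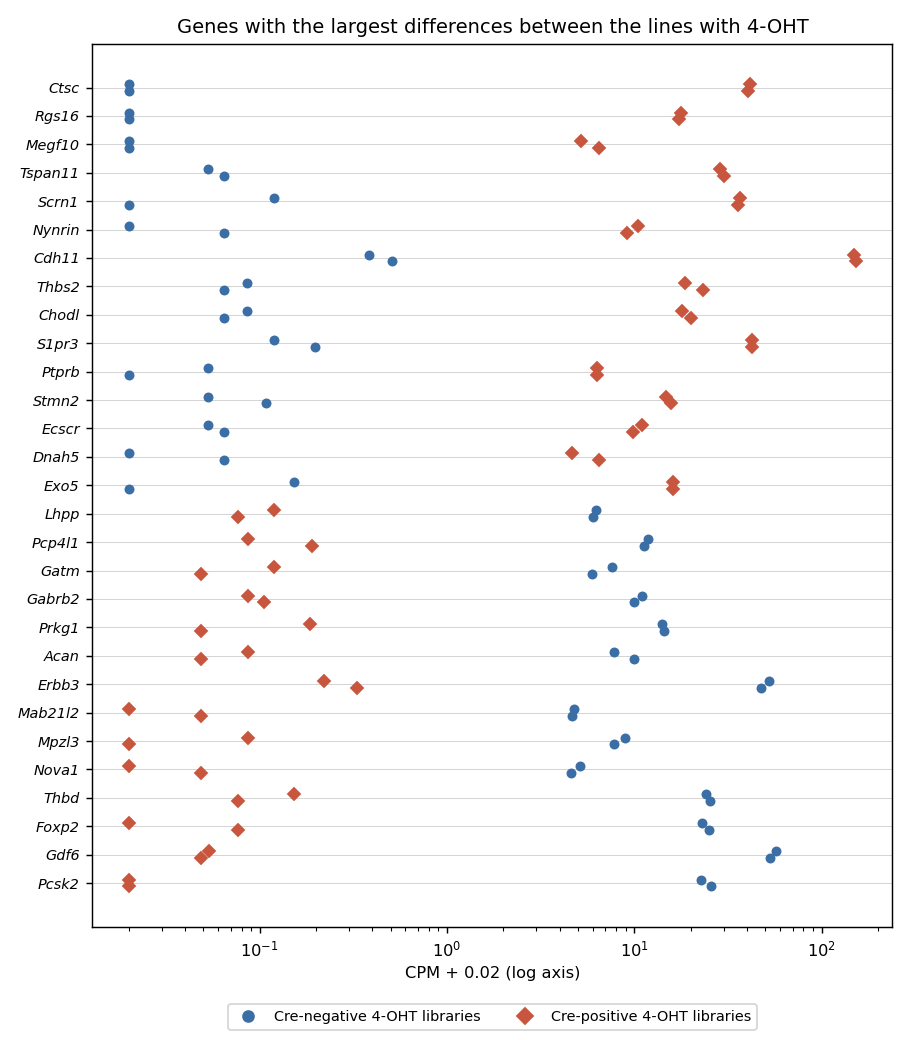
CPM plus 0.02, on a log axis, of the 15 genes with the largest positive difference and 14 of the 15 with the largest negative difference with 4-OHT, in each of the 4 libraries (circles Cre-negative, diamonds Cre-positive). Absence of overlap between the lines was part of the rule that chose these genes, so it is not a result. The low group is at or below 0.486 CPM.

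The line difference was not spread evenly over the genome. On chromosome 18 the median log2 difference of its 435 tested genes was 0.51 with 4-OHT, 0.50 with ethanol and 0.47 untreated. With 4-OHT 296 were higher (68.0%) and 39 lower (8.97%), beside 30.8% and 30.3% of all compared genes. All 5 intervals of 20 Mb along chromosome 18 had a positive median, from 0.17 in the last to 0.66 at its start. Chromosome 6 had medians of 0.19, 0.22 and 0.22 over 943 genes and chromosome 10 medians of -0.15, -0.16 and -0.14 over 758 genes. The other 16 autosomes had medians from -0.14 (chromosome 4) to 0.11 (chromosome 19) with 4-OHT. Genes of a chromosome are not independent replicates, so these are descriptions, and the shift was close in size without 4-OHT.

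Within 5 Mb of each locus that the design altered, 66.7% of 45 genes passed around Nabp1, 63.7% of 91 around Nabp2 and 67.4% of 86 around Gt(ROSA)26Sor, beside 61.2% of all compared genes. Around Nabp2 16 were higher and 42 lower (median -0.24), and around Gt(ROSA)26Sor 43 were higher and 15 lower (median 0.36). The medians with ethanol were -0.18 and 0.20. Chromosome 10, which holds Nabp2, was skewed likewise with 4-OHT, with 23.9% of its genes higher and 44.1% lower. Its interval from 120 to 140 Mb had a median of -0.26. On chromosome 6, which holds Gt(ROSA)26Sor, 42.2% were higher and 17.2% lower, with a median of 0.22 from 100 to 120 Mb. Creld1, a neighbour of Gt(ROSA)26Sor, was at 2.26 and 1.93 CPM against 0.706 and 0.727 CPM, and Arpc4, an actin-branching subunit beside it, at 145 and 145 CPM against 89.4 and 90.4 CPM (log2 0.69 with 4-OHT, 0.45 with ethanol).

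**Figure D4:**
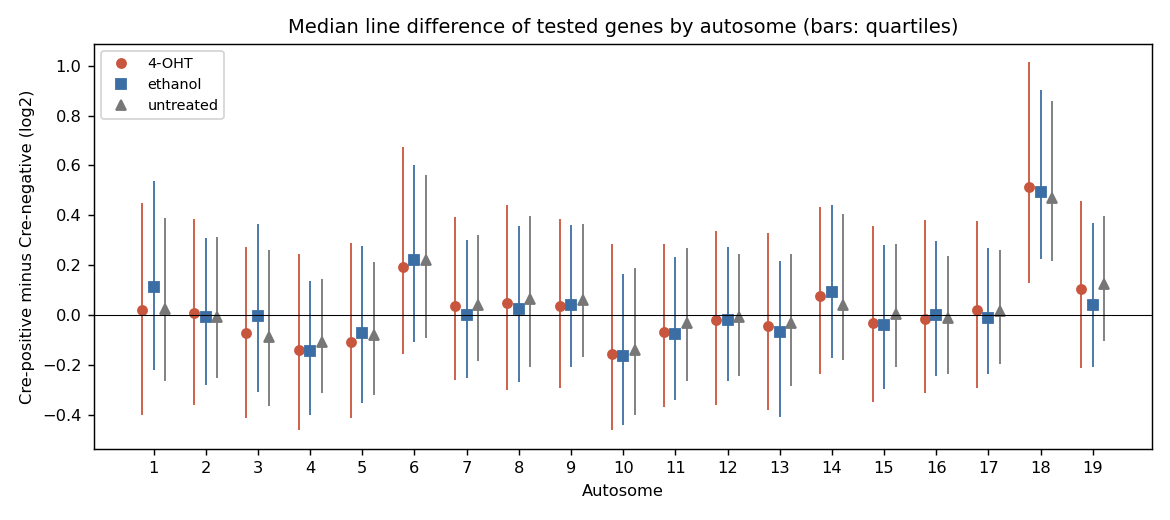
Median log2 difference between the lines over the tested genes of each autosome (vertical axis) with 4-OHT, with ethanol and untreated; bars run from the lower to the upper quartile of genes. Chromosome 18 is the highest in all 3 conditions, with medians between 0.47 and 0.51.

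The clustered protocadherins, cell-surface molecules encoded in a row on chromosome 18, moved together: of 30 tested 25 were higher and 1 lower with 4-OHT (median log2 1.45), 21 and 2 with ethanol (1.29), and 19 and 1 untreated (1.12). Pcdhb16 was at 78.3 and 82.2 CPM against 6.40 and 4.72 CPM (log2 3.88), and Pcdhgb6 at 4.16 and 3.56 CPM against 0.177 and 0.264 CPM (log2 4.07). Members share sequence, so reads may be split between them. Hox genes, which carry positional identity, were higher for 11 and lower for 4 of 18 (median 0.78). With 4-OHT 86.7% of the protocadherins and 83.3% of the Hox genes were called, beside 61.2% of all compared genes. For the protocadherins the share was 76.7% with ethanol and 66.7% untreated, beside 55.0% and 49.3%. Hoxa7 was at 3.43 and 3.43 CPM against 0.132 and 0.132 CPM, while Hoxd12 was at 0.934 and 0.666 CPM against 3.31 and 3.37 CPM.

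Of 73 patterning transcription factors 33 were higher and 24 lower, 78.1% called beside 61.2% of all compared genes. In all 3 conditions 52 passed in the same direction, beside 2655 higher and 2702 lower among all 16593 compared genes. Tbx5, a forelimb and heart factor, was at 14.4 and 15.7 CPM against 0.0883 and 0.231 CPM. Irx1 showed the reverse, at 0.283 and 0.233 CPM against 19.3 and 19.7 CPM (log2 -6.21). Among 23 imprinted genes 9 were higher and 7 lower, 69.6% called beside 61.2% of all compared genes. Igf2, a fetal growth factor expressed from the paternal copy, was at 9.51 and 9.82 CPM against 0.0883 and 0.132 CPM, and the paternally expressed pair Sgce and Peg10 was also higher, Sgce at 60.4 and 59.7 CPM against 0.574 and 1.19 CPM.

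Among matrix and contractile genes more were higher than lower. Of 32 contractile and myofibroblast genes 28 were higher and 2 lower with 4-OHT (median log2 1.13). That was 93.8% called, beside 61.2% of all compared genes (30.8% higher, 30.3% lower). In all 3 conditions 29 of the 32 passed in the same direction, beside 2655 higher and 2702 lower among all 16593 compared genes. Acta2, smooth muscle actin, was at 4163 and 4215 CPM against 1067 and 1106 CPM (log2 1.95), and Tagln, transgelin, at 1132 and 1114 CPM against 244 and 255 CPM (log2 2.17). Cnn1, calponin, was at 32.6 and 33.2 CPM against 0.309 and 0.231 CPM (log2 6.93 with 4-OHT, 5.54 with ethanol, 6.62 untreated).
Smooth muscle and pericyte markers summed to 5406 and 5437 CPM in the Cre-positive against 1451 and 1503 CPM in the Cre-negative 4-OHT libraries, mostly Acta2 and Tagln themselves. Of the 5 tested markers, 100% called beside 61.2% of all compared genes, 4 were higher and 1 lower. That one, the pericyte marker Cspg4, was at 76.2 and 73.1 CPM against 138 and 142 CPM, and Rgs5, another, was at or below 0.20 CPM in all 4; their part in the contractile result was not tested.

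Of 31 collagens 21 were higher and 4 lower with 4-OHT (median 0.65), and 17 and 5 with ethanol (0.77). These were 80.6% and 71.0% called, beside 61.2% and 55.0% of all compared genes. Col8a2 was at 23.6 and 25.4 CPM against 0.53 and 0.264 CPM, and Col3a1, a fibrillar collagen, at 910 and 819 CPM against 302 and 323 CPM (log2 1.47 with 4-OHT, 0.99 with ethanol, 2.02 untreated). Of 66 matrix glycoproteins and proteoglycans 40 were higher and 16 lower, 84.8% called. Nid1, which links laminin and collagen IV, was at 86.5 and 88.6 CPM against 0.662 and 0.396 CPM. The fibroblast marker Fn1, fibronectin, went the other way, at 889 and 984 CPM against 1751 and 1795 CPM. Of 44 matrix proteases and inhibitors 25 were higher and 10 lower, 79.5% called. Mmp13, a collagenase, was at 33.8 and 33.2 CPM against 0.486 and 0.561 CPM, a log2 difference of 5.97 with 4-OHT, 3.52 with ethanol and 2.30 untreated, and both differences between conditions passed. Serpine2, an inhibitor of thrombin-like proteases, was lower, at 0.962 and 0.832 CPM against 22.3 and 19 CPM.

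The TGF-beta, Wnt and cytokine lists also held more higher than lower genes. Of their tested members 91.4%, 77.3% and 81.8% were called, beside 61.2% of all compared genes (30.8% higher, 30.3% lower). Of 35 TGF-beta and BMP pathway genes 24 were higher and 8 lower (median 0.63): Tgfb3, a ligand, was at 136 and 132 CPM against 14.9 and 17.8 CPM, and the BMP antagonist Grem1 at 288 and 280 CPM against 57.4 and 57.7 CPM. Of 44 Wnt pathway genes 27 were higher and 7 lower (median 0.54); the receptor Ror1 was at 2.60 and 2.93 CPM against 0.132 and 0.132 CPM. Slit2, a guidance ligand, was at 545 and 542 CPM against 13.3 and 14.9 CPM (log2 5.26). The semaphorin, ephrin, netrin and slit list as a whole had 21 higher and 15 lower of 49 (median 0.09). Of that list 73.5% were called, beside 61.2% of all compared genes. Of 44 chemokine and cytokine genes 22 were higher and 14 lower, among them Lifr, a cytokine receptor, at 71.6 and 71.8 CPM against 2.21 and 2.64 CPM, and Tnfrsf11b, the decoy receptor osteoprotegerin, at 4.42 and 4.23 CPM against 110 and 116 CPM.

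Among genes of the cell cycle and of repair more were lower than higher. Of 44 DNA replication and S phase genes 33 were lower and 5 higher with 4-OHT (median log2 -0.34). That was 86.4% called, beside 61.2% of all compared genes (30.8% higher, 30.3% lower). By the test of the difference, 25 of the 44 had a more negative line contrast with 4-OHT than untreated, none a more positive one. Over all compared genes these shares were 12.0% and 12.2%. Against ethanol 14 of the 44 had a more negative line contrast and 2 a more positive one, beside 13.8% and 14.8%. The median difference was -0.05 for ethanol, against -0.24 for untreated. Rpa1, the large subunit of the main single-strand binding protein, was at 244 and 237 CPM against 508 and 508 CPM (log2 -1.08), of which -0.93 was present with ethanol. Pole, a replicative polymerase, was at 107 and 104 CPM against 204 and 219 CPM, a line contrast of -0.49 with ethanol and a further -0.51 with 4-OHT.

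Of 36 G2 and mitosis genes 27 were lower and 5 higher (median -0.27), 88.9% called beside 61.2% of all compared genes. Untreated, 10 were lower and 7 higher (median 0.03), 47.2% called beside 49.3% of all compared genes. The line contrast was lower with 4-OHT than untreated for 26 and higher for 1, beside 12.0% and 12.2% of all compared genes. Against ethanol these counts were 21 and 4, beside 13.8% and 14.8%. Summed levels in the Cre-negative line were 8176 and 8156 CPM untreated, 9039 and 8937 with ethanol, and 9544 and 9465 with 4-OHT. In the Cre-positive line they were 8272 and 8160, 8854 and 8796, and 7926 and 7972 CPM. Kif23, a kinesin of cytokinesis, was at 133 and 140 CPM against 220 and 213 CPM (log2 -0.67), while its line contrast was 0.10 with ethanol and 0.07 untreated. Ccnb2, a mitotic cyclin, was at 103 and 101 CPM against 130 and 131 CPM (log2 -0.36), and passed in the opposite direction with ethanol (0.20). Ccnd1, cyclin D1, was at 135 and 137 CPM against 259 and 256 CPM (log2 -0.92 with 4-OHT, 0.11 with ethanol).

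Of 44 genes of homologous recombination, Fanconi repair and checkpoints 26 were lower and 3 higher (median -0.25), 65.9% called beside 61.2% of all compared genes. The line contrast was lower with 4-OHT than untreated for 24 of the 44 and higher for 2, beside 12.0% and 12.2% of all compared genes. It was lower than with ethanol for 16 of the 44 and higher for 5, beside 13.8% and 14.8%. Atm, the kinase that answers double-strand breaks, was at 89.1 and 85.7 CPM against 186 and 185 CPM (log2 -1.09 with 4-OHT, -0.39 with ethanol). Brca2, a mediator of homologous recombination, was at 39.3 and 42.9 CPM against 81.7 and 78.3 CPM (log2 -0.96). Of 33 p53 targets 20 were lower and 9 higher, 87.9% called beside the same 61.2%. Cdkn1a, the cell cycle inhibitor p21, was at 2.07 and 2.66 CPM against 13.3 and 11.6 CPM. Pmaip1, a pro-apoptotic target also called Noxa, was at 24.6 and 23.8 CPM against 0.486 and 0.231 CPM.

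Replication-dependent histone genes, whose 3′ ends are cut rather than polyadenylated, were lower for 37 and higher for 12 of 64 (median -0.28) with 4-OHT. That was 76.6% called, beside 61.2% of all compared genes. With ethanol 52 were lower and 5 higher (median -0.61), 89.1% called beside 55.0% of all compared genes. For 47 the difference between the 4-OHT and ethanol contrasts passed, in each case upward, beside 14.8% of all compared genes. Untreated, 33 were lower and 5 higher (median -0.22), 59.4% called beside 49.3%. The difference from that contrast passed for 3 of the 64 upward and 11 downward, beside 12.2% and 12.0% of all compared genes. Hist4h4 was among the 12 higher, at 38.6 and 37.7 CPM against 4.28 and 4.26 CPM. Many histone copies are near-identical, so single-gene values are uncertain.

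Interferon-stimulated genes changed their line difference with the culture condition. Of 54 tested, 30 were lower and 13 higher in the Cre-positive line with 4-OHT (median -0.29), 37 and 7 with ethanol (-0.68), but 9 lower and 21 higher untreated (0.33). These were 79.6%, 81.5% and 55.6% called, beside 61.2%, 55.0% and 49.3% of all compared genes. The difference from the untreated contrast passed downward for 23 of the 54 and upward for 2, beside 12.0% and 12.2% of all compared genes. That from the ethanol contrast passed upward for 17 and downward for 0, beside 14.8% and 13.8%. The summed level of the interferon-stimulated genes was higher in the treated than in the untreated libraries of both lines. It was 842 and 845 CPM untreated, 1318 and 1417 CPM with ethanol and 1645 and 1627 CPM with 4-OHT in the Cre-negative line, and 960 and 954, 1070 and 996, and 1418 and 1462 CPM in the Cre-positive line. H2-K1, a class I histocompatibility gene, was at 6.57 and 6.56 CPM against 97.5 and 99.1 CPM (log2 -3.90 with 4-OHT, -2.74 untreated); class I genes share sequence, so its reads are uncertain.

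Cholesterol synthesis and uptake genes were higher for 21 and lower for 1 of 25 with 4-OHT (median 0.51). That was 88.0% called, beside 61.2% of all compared genes. With ethanol 23 of the 25 were higher and 1 lower (median 0.93), 96.0% called beside 55.0% of all compared genes. For 18 the line contrast was lower with 4-OHT than with ethanol, beside 13.8% of all compared genes. Untreated, 20 were higher and 1 lower (median 0.38), 84.0% called beside 49.3%. Against that contrast 10 were higher and 2 lower with 4-OHT, beside 12.2% and 12.0% of all compared genes. Hsd17b7, a sterol reductase, was at 105 and 98.0 CPM against 36.4 and 37.2 CPM (log2 1.46), and Fdft1, squalene synthase, at 182 and 180 CPM against 94.0 and 94.6 CPM (log2 0.94). Pparg, the adipocyte regulator, was at 1.73 and 2.03 CPM against 49.1 and 45.2 CPM and was lower in all conditions (log2 -4.65 with 4-OHT, -4.84 with ethanol and -4.66 untreated). Fabp4, a fatty acid carrier, was also lower (log2 -1.80), and Adipoq and Plin1, later adipocyte markers, were at or below 0.0333 CPM. Cebpa, the remaining tested adipocyte marker, was at 5.89 and 7.16 CPM against 5.30 and 5.09 CPM (log2 0.32, edgeR adjusted p = 0.045), a call that was lost without Cre-negative library 5 (log2 0.34) or 6 (log2 0.28) or Cre-positive library 12 (log2 0.19). Esr1, the oestrogen receptor that 4-OHT binds, was at 17.2 and 17.0 CPM against 11.6 and 12.3 CPM (log2 0.51 with 4-OHT, 1.04 with ethanol).

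**Figure D5:**
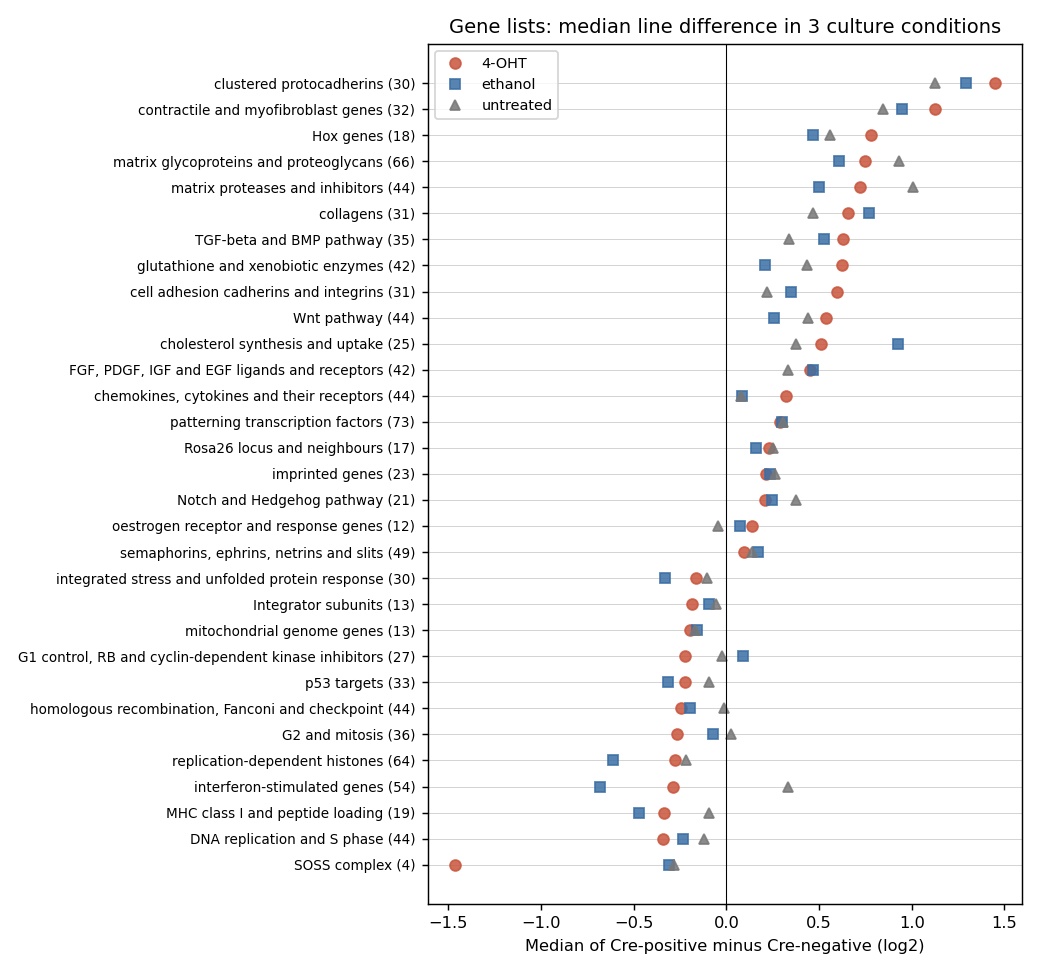
Median log2 difference between the lines over the tested members of each gene list (number in brackets), with 4-OHT, with ethanol and untreated; cell type marker lists and the snRNA copies are not drawn. Of the lists drawn, clustered protocadherins lie farthest right in all 3 conditions, and interferon-stimulated genes change side between untreated (0.33) and 4-OHT (-0.29). The SOSS list is far left with 4-OHT only, but its 4 members include both targeted genes. Its other members, Ints3 and Inip, were at -0.35 and -0.07 with 4-OHT.

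Genes whose line contrast passed with 4-OHT alone, and differed from the ethanol contrast in the same direction, numbered 456 higher and 355 lower as above. Taf15, a partner of the TFIID complex of promoters, was at 14.0 and 14.8 CPM against 36.2 and 32.5 CPM (log2 -1.25, SE 0.08, adjusted p = 6.5e-12), with -0.12 with ethanol and -0.03 untreated. Polr2a, the largest subunit of RNA polymerase II, was at 38.4 and 45.4 CPM against 75.9 and 83.4 CPM (log2 -0.93, SE 0.12), while its libraries ran from 61.2 to 99.4 CPM in the 4 other groups with no line contrast that passed. Setd1b, a histone H3 lysine 4 methyltransferase, was at 3.00 and 4.06 CPM against 7.15 and 6.64 CPM (log2 -0.97), and E2f8, a cell cycle repressor, at 7.81 and 11.2 CPM against 17.7 and 16.1 CPM (log2 -0.84). Med20, a subunit of the Mediator complex, was at 20.1 and 18.4 CPM against 33.4 and 33.9 CPM (log2 -0.80).

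On the higher side Cers3, a ceramide synthase, was at 3.85 and 4.16 CPM against 0.662 and 0.495 CPM (log2 2.81), and Sdcbp2, a syntenin, at 4.67 and 4.23 CPM against 0.751 and 0.859 CPM (log2 2.45). Casp4, an inflammatory caspase, was at 4.47 and 4.36 CPM against 2.16 and 1.92 CPM (log2 1.12), and Col6a6, a collagen VI chain, at 4.59 and 5.19 CPM against 2.08 and 2.54 CPM (log2 1.06). Fzd10, a Wnt receptor, was at 28.8 and 12.4 CPM against 7.02 and 11.8 CPM; without library 11 its log2 difference was 0.36 and did not pass (adjusted p = 0.23).

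A smaller set of genes reversed, passing in the opposite direction with ethanol and untreated: 51 of those higher and 41 of those lower with 4-OHT. Rad18, a ubiquitin ligase of DNA damage tolerance, was at 55.7 and 54.5 CPM against 72.4 and 72.6 CPM with 4-OHT (log2 -0.40), and was 0.12 higher with ethanol and 0.15 higher untreated. Terf1, a telomere protein, was at 19.3 and 19.5 CPM against 24.9 and 26.5 CPM (log2 -0.41, against 0.29 with ethanol). Gjb2, a gap junction protein, was at 28.5 and 28.2 CPM against 37.8 and 36.1 CPM (log2 -0.38, against 1.23 with ethanol). Atp1b1, a subunit of the sodium pump, was at 67.8 and 65.9 CPM against 45.8 and 47.2 CPM (log2 0.52, against -0.15 with ethanol and -0.76 untreated), and Npnt, nephronectin, at 25.5 and 25.6 CPM against 17.5 and 18.3 CPM (log2 0.51, against -0.72 with ethanol and -0.43 untreated). Among the genes of this set named by rule, the 4-OHT difference was at most 0.94 on the log2 scale.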

How the data were processed

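RNA was extracted from all 12 libraries and depleted of ribosomal RNA before stranded paired-end sequencing of 75 bases, per the labels' protocols. The authors deposited expected counts, 1 value per gene and library, already as whole numbers. Tools named in the submitters' processing notes are RSEM 1.2.30, STAR 2.5.2a, cutadapt 1.11 and edgeR, with the build GRCm38; annotation and strand setting are unknown here. Genes were placed by symbol with GENCODE M21, or RefSeq for 380 genes.

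The 17609 genes that passed filterByExpr were fitted with edgeR 4.0.16 (R 4.3.3): TMM scaling, 1 mean for each of 6 groups, the quasi-likelihood test and Benjamini-Hochberg adjustment over all genes, with a threshold of 0.05. The fit had 6 residual and 14.6 prior degrees of freedom and a biological coefficient of variation of 3.44%. Libraries of a group differed by more than sampling noise (chi-square per degree of freedom 2.37 to 4.60). Tested on simulated data of 17248 genes for the 4-OHT contrast, the fit recovered 86% of genes changed by 0.5 and 99% changed by 1 on the log2 scale, and called 0.0763% of unchanged genes. There 100 genes were changed at each size, none of low count, and all others were equal between the lines. Counts were drawn with the fit's own dispersions. These rates therefore do not cover low-count genes, or lines that differ in as many genes as these.

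Named genes were the targets and partners, the 15 largest differences per direction among genes of average log2 CPM at least 1 without overlap, the 10 largest per direction called with 4-OHT alone, the 6 largest per direction that reversed, and the 4 largest members of each of 42 gene lists, which gave 200 genes; predicted genes and pseudogenes were left out of all but the lists, and the text names part of them. Some items are not reported here. The comparison, members and lists were chosen with earlier results of these data known. Counting intervals are 95% and, like the floor of 3 counts, cover counting error only. DESeq2 1.42.0, RLE size factors, no filter on low counts, the compared libraries alone, a test against 1.5-fold, autosomal genes alone and leaving out each library were the alternatives.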

Additional observations from a re-analysis of the deposited data

Results flagged for a closer look

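For 20 of the 200 genes chosen by rule the line difference with 4-OHT departed from that with ethanol and from that in untreated cells, both by a test of the difference (edgeR's quasi-likelihood test), in the same direction and by at least 1 on the log2 scale. The values here are the line difference with 4-OHT minus that with ethanol. Both targets were among them, Nabp1 at -2.08 and Nabp2 at -2.27, as was Taf15 at -1.13. The snRNA copies stood at 3.25 (Rnu2-10), 3.19 (Rnu1a1) and 2.22 (Rnu5g), and Tex14, which contains Rnu1a1, at 1.93. Matrix and adhesion genes were Mmp13 at 2.45, Serpine2 at 1.69, Cdh11 at 1.49 and the integrin Itga8 at 1.28; Serpine2 stayed lower in the Cre-positive line in all 3 conditions. Genes of other kinds were Cers3 at 2.27, AA986860 at 2.12, Sdcbp2 at 1.91, Ttc30a1 at 1.84, Krtap1-5 at 1.77, Tppp at 1.31, Vwa1 at 1.24, Esrp2 at 1.24 and Fzd10 at 1.19. Of these, Fzd10 lost the 4-OHT line call without Cre-positive library 11 (0.36), Vwa1 without any 1 of the 4 compared libraries (0.43 to 0.47), and Tppp without Cre-negative library 5 (0.42) or 6 (0.43) or Cre-positive library 12 (0.38).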

How the results depend on the processing

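No paired analysis was possible because the library numbers in the labels run from 1 to 12 and no number is shared between groups. Tested against 1.5-fold, the counts of higher and lower genes fell to 1819 and 1215 with 4-OHT, 1284 and 1055 with ethanol, 1203 and 847 untreated, 124 and 49 for the 4-OHT minus ethanol difference, and 85 and 48 for 4-OHT minus untreated; that test asks for larger effects by construction. DESeq2 called 1457 genes upward for the 4-OHT minus ethanol difference. Under the other alternatives the 4-OHT line contrast called 4040 to 5160 genes higher and 4244 to 5107 lower. Chromosome medians were 0.49 (chromosome 18), 0.047 (6) and -0.035 (10) with DESeq2 and 0.50, 0.050 and -0.031 without the filter, which admits more low-count genes; with the compared libraries alone they were 0.19 (6) and -0.16 (10). Leaving out 1 library gave 0.17 to 0.19 for chromosome 6, -0.16 to -0.14 for chromosome 10 and 0.51 to 0.52 for chromosome 18. Where the cause is not given, it was not tested. For the 200 named genes, 1909 of 1995 gene and alternative pairs kept direction and call, 85 lost the call and 1 reversed: Gt(ROSA)26Sor, which was not called, ran from -0.13 without library 11 to 0.042 without library 12 of the Cre-positive line. Besides Fzd10, Vwa1 and Tppp, leaving out 1 library ended the call of Ints9, Tmem163, Dll1, Notch4, Trim30a, Ciita, Mycl, Hist1h1t, Cebpa, Runx2 and Des. Under the 1.5-fold test Ints3, Ints4, Ints8, Rnu12, Esr1, Ccnb2, Rad18, Terf1, Gjb2, Atp1b1 and Npnt were not called. Depth limits the folds of 48 higher and 30 lower genes, which had 0 counts in both libraries of the lower group.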

Other observations

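Enzymes of glutathione and xenobiotic metabolism were higher in the Cre-positive line for 24 and lower for 13 of 42 with 4-OHT (median log2 0.62). That was 88.1% called, beside 61.2% of all compared genes. In all 3 conditions 26 of the 42 passed in the same direction, beside 2655 higher and 2702 lower among all 16593 compared genes. Gstt1, a glutathione transferase, was at 9.43 and 8.32 CPM against 0.0883 and 0.033 CPM, and Ces1g, a carboxylesterase with close paralogs, at 17.9 and 17.6 CPM against 0.442 and 0.33 CPM. Of 30 genes of the integrated stress and unfolded protein response 12 were higher and 16 lower with 4-OHT, against 5 and 19 with ethanol. These were 93.3% and 80.0% called, beside 61.2% and 55.0% of all compared genes. Of the 30, 17 had a higher line contrast with 4-OHT than with ethanol and 2 a lower one, beside 14.8% and 13.8%. Untreated, 8 were higher and 12 lower, 66.7% called beside 49.3%. Against that contrast 7 were higher and 10 lower with 4-OHT, beside 12.2% and 12.0% of all compared genes. Trib3, a pseudokinase induced by ATF4, was at 11.2 and 9.96 CPM against 27.5 and 30.1 CPM (log2 -1.44 with 4-OHT, -1.77 with ethanol, -0.54 untreated). Shmt2, the mitochondrial serine hydroxymethyltransferase, was at 99.0 and 97.5 CPM against 233 and 246 CPM (log2 -1.28).

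The list of mitochondrial genome genes held 13 tested members, while 16 compared genes lay on that genome. Of the 13 listed, 1 was higher and 6 lower with 4-OHT (median -0.20), 53.8% called beside 61.2% of all compared genes. mt-Nd6, the complex I subunit read from the light strand, was at 30.8 and 30.3 CPM against 45.2 and 50.6 CPM (log2 -0.65 with 4-OHT, -0.53 with ethanol). Of 4 tested neural markers 2 were higher and 2 lower, 100% called beside 61.2% of all compared genes. Sox2, a stem cell factor, was at 35.1 and 35.7 CPM against 10.4 and 8.88 CPM (log2 1.89), and was higher with ethanol (1.81) and untreated (1.42). Tubb3, a neuronal tubulin, was at 6.23 and 6.53 CPM against 4.64 and 3.50 CPM, while Nes was lower at 67.2 and 65.7 CPM against 87.1 and 87.4 CPM and Map2 at 33.3 and 34.7 CPM against 79.4 and 77.0 CPM.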
